A study of Mus musculus with 6 samples.

Results

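The genes described here are 43 interferon-stimulated genes, chosen by symbol from the known response to interferon and all found among the 22609 genes of the authors' deposited table. Of these, 38 are genes mainly known from the type I interferon response and 5 are GTPase genes best known from the interferon-gamma response (Gbp2, Gbp3, Gbp7, Igtp and Irgm1). RNA was sequenced from early T cell progenitors, the most immature cells of the thymus, sorted from C57BL/6 fetal thymus. The double-knockout (dKO) group had the genotype E2Afl/flHEBfl/flIL7RCre, in which Cre recombinase driven by Il7r deletes floxed parts of the genes for the E proteins E2A and HEB. Its cells were sorted as negative for CD4, CD8, lineage markers and CD25 and positive for CD44, c-Kit and YFP. The control group was wild type, with the same gate but without the YFP selection, so the gate differs along with the genotype. There were 3 libraries in each group, and the age of the fetuses is not given in the sources used here. Whether each library stands for a different animal is not stated, so the tests speak only of spread among libraries, which may be technical. The targeted genes were low in dKO: Tcf3 (E2A) averaged 364 in dKO and 8931 in control, 24.6-fold lower, and Tcf12 (HEB) 562 in dKO and 3845 in control, 6.84-fold lower, in the authors' deposited table.

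Interferons are secreted antiviral cytokines. Type I interferons (the alpha family and beta) bind the receptor of Ifnar1 and Ifnar2, whose kinases Jak1 and Tyk2 activate Stat proteins, Stat2 among them, which join Irf9 in a complex that binds the interferon-stimulated response element of target promoters. Interferon-gamma binds the receptor of Ifngr1 and Ifngr2 and acts through Jak1 and Jak2 on gamma-activated sites. Many lymphoid cells keep a low level of target genes without infection, and several targets, Irf7 and Irf9 among them, are themselves parts of the pathway.

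The interferon-stimulated genes were higher in dKO progenitors as a group. The authors' mean normalised count was higher in dKO for 41 of the 43 members, and 28 rose at the authors' adjusted p under 0.05 (DESeq, per the submitters' processing notes). Across all 16241 tested genes 15.1% were called higher by the same rule and 13.8% lower, and among the 10302 genes whose mean reached 100 the shares were 21.2% higher and 19.1% lower. In either direction 29.0% of all tested genes were called. With a fold of at least 2 as well, 24 of the 43 members were called higher, against 6.86% of all tested genes. By that DESeq test 0 members were called lower, and 0 members had a lower mean with an unadjusted p under 0.05, while 35 members in all had an unadjusted p under 0.05. The median log2 change of the members was 1.65, against -0.02 for all tested genes. Of the 38 type I responsive members 25 rose, with a median log2 change of 1.72, and of the 5 interferon-gamma type members 3 rose, with a median of 1.45. The difference between these 2 kinds was not tested. In bulk samples a larger share of responding cells and more RNA per cell cannot be told apart.

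**Figure D1:**
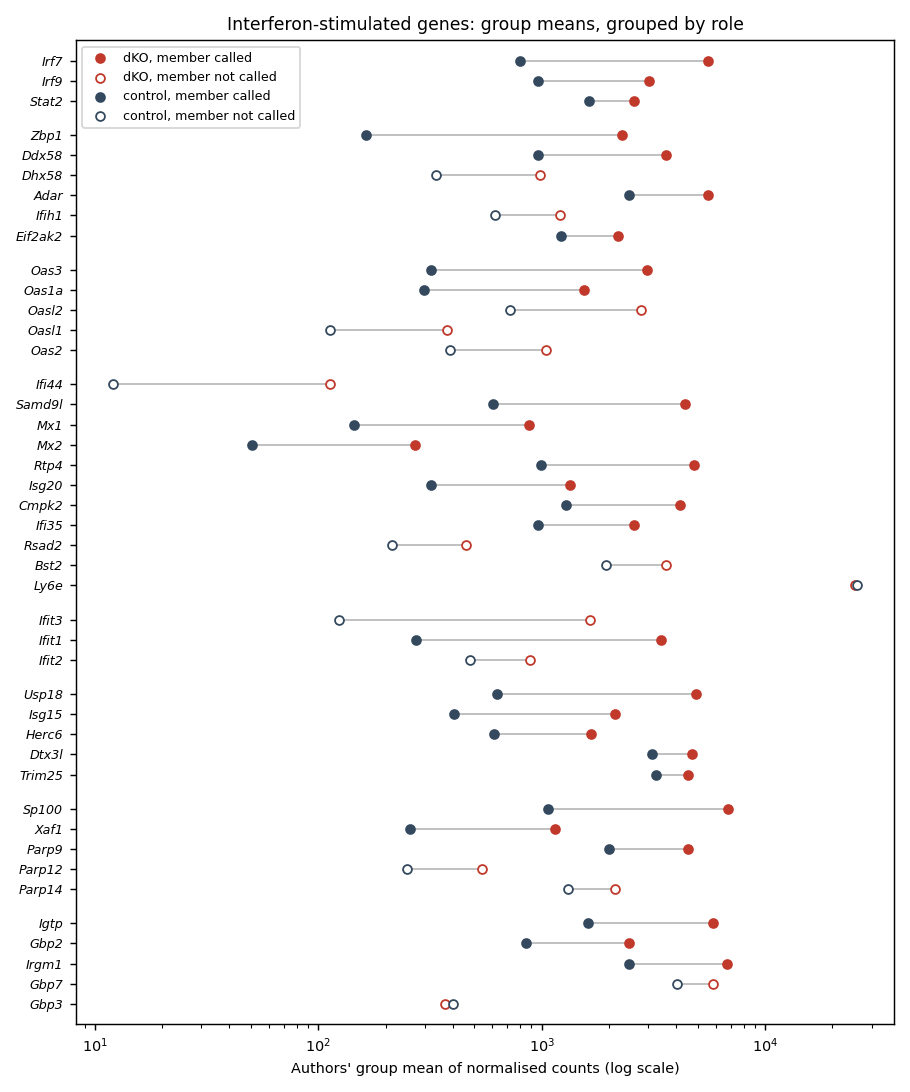
Authors' group means of normalised counts (log axis) for the 43 members, in blocks by role, with dKO in red and control in dark blue-grey, and filled points for the 28 members that passed the authors' test. The dKO point lies to the right for every member except Gbp3 and Ly6e.

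The deposited table gives 1 mean per gene and group, and the dKO libraries stood apart from each other in these genes. A mean of low normalised counts can be traced back to whole reads in the 3 libraries of a group, which are named here by their size factors (1.16, 1.08 and 1.04 for dKO; 1.02, 0.952 and 0.823 for control) because nothing ties them to the replicate numbers. Of the members, Mx2 and Ifi44 could be resolved in both groups, Parp12 and Gbp3 in dKO only, and Oasl1 and Ifit3 in control only. In all 4 members resolved in dKO the library of size factor 1.08 was highest, that of 1.04 was next and that of 1.16 was lowest. That order was found in 13.6% of the 3509 genes with a dKO mean of 20 to 300 and resolved reads. The library of 1.08 exceeded that of 1.16 at least 2-fold in each of the 4 members, against 7.35% of those genes. Parp12 and Gbp3, with dKO means of 539 and 369, lie above the range of means of those genes.

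Mx2 belongs to the Mx family of antiviral GTPases, and whether its protein is functional in these mice was not examined. Its normalised counts were 125, 403 and 290.0 in the dKO libraries of size factor 1.16, 1.08 and 1.04. They were 45.9, 69.3 and 36.4 in the control libraries of 1.02, 0.952 and 0.823. The groups did not overlap, and all 3 dKO libraries were above all 3 control libraries. Such separation was found in 28.9% of the 2201 genes resolved in both groups, and an exact permutation test of 3 against 3 libraries cannot give a 2-sided p under 0.1. The mean was 272 ± 140 in dKO and 50.5 ± 16.9 in control (SD, n = 3 each), 5.39-fold higher. It passed with an authors' adjusted p of 0.0104 in the authors' deposited table. The fold was 4.10 without the dKO library of 1.08 and 6.85 without that of 1.16.

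Ifi44, an interferon-induced protein with antiviral activity, had normalised counts of 27.7, 219 and 92.5 in the same order of dKO libraries and 3.90, 26.3 and 6.07 in the control libraries. The groups did not overlap, but the lowest dKO library and the highest control library were close. The mean was 113 ± 97.6 in dKO and 12.1 ± 12.3 in control (SD, n = 3 each), 9.38-fold higher. It missed the threshold in the authors' deposited table (authors' adjusted p = 0.103). The fold was 4.98 without the dKO library of 1.08 and 22.7 without the control library of 0.952.

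Parp12, an antiviral member of the PARP family, had 208, 953 and 457 normalised counts in the dKO libraries of 1.16, 1.08 and 1.04, against a control mean of 251. The dKO library of 1.16 was below the control mean and the others were above it. Without the dKO library of 1.08 its 2.15-fold higher mean became 1.32-fold, and it missed the threshold in the authors' deposited table (authors' adjusted p = 0.389). Mx1 had 2 solutions in dKO, and in both of them the library of 1.08 was highest, at 1495 or 1149, with 773 in that of 1.04 and 354 or 701 in that of 1.16. For Dhx58 and Ifit2 the dKO library of 1.16 was lowest in every solution. For Oasl1 and Rsad2 the solutions differ in which dKO library is highest, and members with higher means could not be resolved.

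The same order of libraries was seen in other interferon-responsive genes of the pathway lists that could be resolved in dKO with a mean of at least 20. Of 15 such genes, 13 were highest in the library of 1.08, against 30.4% of the 3509 resolved genes, and 12 had the order 1.08, 1.04, 1.16. Those 3509 genes had dKO means of 20 to 300. Ifi204, Oas1b, Ifi27l2a, Phf11 and Iigp1 lie above that range, with dKO means of 318, 368, 455, 563 and 965. Ifi27l2a had 133, 937 and 297 normalised counts in the dKO libraries of 1.16, 1.08 and 1.04, against 23.4, 12.6 and 25.5 in the control libraries of 1.02, 0.952 and 0.823. Iigp1, a GTPase of the interferon-gamma response, had 325, 1562 and 1008 in the dKO libraries in that order, against 115, 252 and 88.7 in control. Both were above control in every dKO library, but they were chosen after their values were seen. The share of such separation over all genes at such dKO means was not computed. In both groups 15 genes could be resolved, the members Mx2 and Ifi44 and 13 of the other genes. Reads are resolved more often where the control mean is low, and the genes had to reach a mean of 20 in dKO alone, so how many of them were higher in dKO is partly set by that choice and is not counted as a result.

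**Figure D2:**
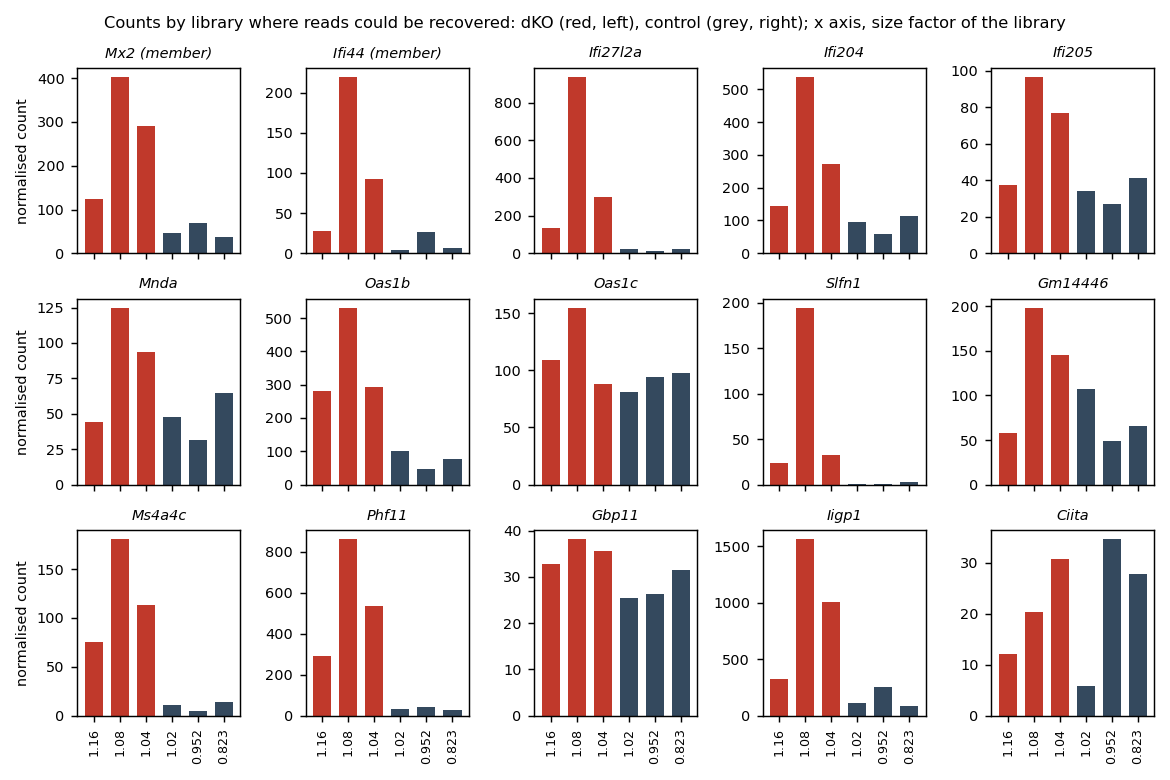
Normalised counts (linear axes from 0) by library for the 15 interferon-responsive genes resolved in both groups, with the dKO libraries of size factor 1.16, 1.08 and 1.04 in red on the left and the control libraries in grey on the right. The bar of 1.08 is the tallest of the dKO bars in every panel but that of Ciita, and in Mx2 and Ifi44 all dKO bars exceed all control bars.

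The authors' calls were set beside those of genes with folds of the same size, members included. With a mean of at least 100, 31 members were at least 2-fold higher in dKO and 24 of them passed the test, against 95.3% of all 881 genes with such a mean and fold. Between 2-fold and 3-fold 6 of 10 members passed, against 92.7% of 412 genes, and between 3-fold and 5-fold 7 of 9 members passed, against 96.9% of 260 genes. Between 5-fold and 10-fold 9 of 9 members passed, against 100% of 165 genes. At 10-fold or more 2 of 3 members passed, against 93.2% of 44 genes, and the member that did not was Ifit3.

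**Figure D3:**
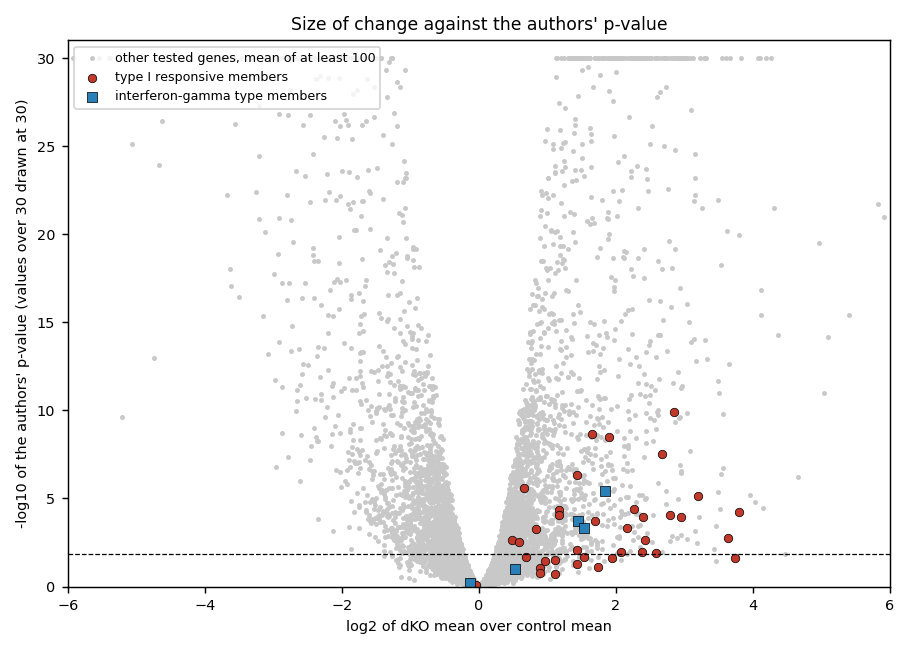
Each point is a tested gene with a mean of at least 100 over both groups, members included, with the log2 of dKO over control on the x axis and −log10 of the authors' p-value on the y axis; members are coloured and the dashed line marks the largest p-value called; values above 30 are drawn at 30 and genes beyond 6 on the x axis are not shown. Members lie to the right of 0 except Gbp3 and Ly6e, and 24 of the 31 that were at least 2-fold higher passed.

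Promoter sequences of 33 of the 43 members were matched in RefSeq's table for GRCm38.p6 (250 bases before to 50 after each start site; the processing notes name mm9 for the deposited table). The core of the response element, searched on both strands as GAAA, any 2 bases and GAAA again, was present for 16 of the 33 members (48.5%), against 3.99% of 27025 genes in that table and 3.70% of the tested genes in it. It was present for all 5 interferon-gamma type members. Among members with a promoter in the table it was found in 10 of 22 that rose and in 6 of 11 that did not pass. The gamma-activated site, searched as TTCNNNGAA, which reads the same on both strands, was present for 9 of the 33 members (27.3%), against 9.55% of all genes. The E box forms CAGCTG and CACCTG, letters that E proteins can bind, were found on either strand for 13 of the 33 members (39.4%), against 35.9% of all genes. A match is a description of letters and not of binding.

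The 120 bases before the start site are shown for the members with the largest rises of each kind that hold the core before their start site, among those whose listed start is also the outermost start of the gene, to show how the core recurs. Capitals mark the response element cores and, in Igtp, the gamma-activated site as well. All are 5′ to 3′ on the strand of the gene: Ifit1 is from the plus strand at chr19:34640769-34640888, Isg15 from the minus strand at chr4:156200819-156200938, Igtp from the plus strand at chr11:58199436-58199555 and Gbp2 from the plus strand at chr3:142620543-142620662 (GRCm38.p6).
Ifit1: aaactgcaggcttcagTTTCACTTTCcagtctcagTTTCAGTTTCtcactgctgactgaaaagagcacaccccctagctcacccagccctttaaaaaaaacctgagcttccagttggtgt
Isg15: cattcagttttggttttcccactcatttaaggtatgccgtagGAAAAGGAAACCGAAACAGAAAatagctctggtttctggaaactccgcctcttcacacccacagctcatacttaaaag
Igtp: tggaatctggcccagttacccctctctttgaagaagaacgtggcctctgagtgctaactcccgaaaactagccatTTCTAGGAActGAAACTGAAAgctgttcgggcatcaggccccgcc
Gbp2: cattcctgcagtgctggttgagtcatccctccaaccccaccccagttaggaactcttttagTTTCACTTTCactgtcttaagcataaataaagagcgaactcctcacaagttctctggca

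Ifit1 holds separate cores that start 104 and 85 bases before the start site, both written as their reverse complement. In Isg15 overlapping cores start 78, 72 and 66 bases before it. In Igtp the gamma-activated site starts 45 bases and the core 34 bases before the start site, and in Gbp2 the core, as its reverse complement, starts 59 bases before it. The members without an entry in the promoter table are Zbp1, Rtp4, Mx1, Dhx58, Parp9, Ly6e, Parp14, Usp18, Mx2 and Oas2.

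All 3 transcription factor genes of the response rose. Irf7, which amplifies interferon production and is itself induced by it, averaged 5540.2 in dKO and 800.4 in control, 6.92-fold higher in the authors' deposited table (authors' adjusted p = 0.00059). The DNA-binding partner Irf9 averaged 3015 in dKO and 963 in control in the authors' deposited table, 3.13-fold higher (authors' adjusted p = 2.97e-08). Stat2, a Stat protein of type I signalling, averaged 2576 in dKO and 1633 in control in the authors' deposited table, a smaller rise of 1.58-fold (authors' adjusted p = 2.37e-05). In the reference annotation Irf7 overlaps Phrf1 on the opposite strand and Irf9 overlaps Rnf31 on the same strand, and the counting is not stated to use strand. The same holds for Rtp4 with Masp1 and Adar with Chrnb2, on opposite strands.

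Of 6 sensors and effectors for foreign RNA and DNA, 4 rose and 2 did not pass. Zbp1, a sensor of Z-form nucleic acids that can trigger cell death, had the largest fold of all members that passed, a log2 change of 3.80, with 2287 in dKO and 164 in control in the authors' deposited table (authors' adjusted p = 0.000428). Ddx58, which encodes the RNA sensor RIG-I, was 3.74-fold higher, with 3613 in dKO and 967 in control in the authors' deposited table (authors' adjusted p = 4.77e-08). Adar, an RNA editing enzyme that marks self RNA, was 2.26-fold higher, with 5522 in dKO and 2448 in control in the authors' deposited table (authors' adjusted p = 0.00057). Eif2ak2, the RNA-activated kinase PKR, was 1.79-fold higher, with 2187 in dKO and 1224 in control in the authors' deposited table (authors' adjusted p = 0.00314). The sensor genes Ifih1 (MDA5), with means of 1211 in dKO and 619 in control, and Dhx58 (LGP2), with 979 in dKO and 337 in control, missed the threshold in the authors' deposited table.

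Among the antiviral families, fold and call often parted. The OAS enzymes make oligoadenylates that activate RNase L, and 2 of 5 OAS family genes rose. Oas3 was 9.20-fold higher, with 2951 in dKO and 321 in control, and Oas1a 5.19-fold higher, with 1541 in dKO and 297 in control, in the authors' deposited table (authors' adjusted p = 6.12e-05 for Oas3 and 0.0382 for Oas1a). Oasl2, with 2782 in dKO and 724 in control, Oas2, with 1050.4 in dKO and 388 in control, and Oasl1, with 378 in dKO and 113 in control, missed the threshold in the authors' deposited table. Oas1a has near-identical neighbours, so its reads may be split among them.

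The IFIT proteins bind viral RNA. Ifit1 was 12.4-fold higher, with 3411 in dKO and 274 in control in the authors' deposited table (authors' adjusted p = 0.00821). Ifit3 averaged 1650.4 in dKO and 123 in control in the authors' deposited table and missed the threshold (authors' adjusted p = 0.074). Its control libraries of size factor 1.02, 0.952 and 0.823 had 129, 93.5 and 148 normalised counts and so lay close together. Ifit2 averaged 884 in dKO and 476 in control and did not pass (authors' adjusted p = 0.207 in the authors' deposited table). Ifit genes are alike in sequence, and their counts share that uncertainty.

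Of 11 further antiviral effectors 7 rose. Samd9l, a restriction factor that also curbs cell growth, was 7.22-fold higher, with 4373 in dKO and 606 in control in the authors' deposited table, the smallest adjusted p among the members (authors' adjusted p = 1.96e-09). Mx1 averaged 874 in dKO and 145 in control, 6.03-fold higher with an authors' adjusted p of 0.043, close to the threshold, in the authors' deposited table. C57BL/6 mice are known to carry an Mx1 allele that makes no functional protein. Rtp4, a restraint on viral RNA replication, was 4.81-fold higher, with 4781 in dKO and 995 in control in the authors' deposited table (authors' adjusted p = 0.000295). The exonuclease gene Isg20 was 4.20-fold higher, with 1339.7 in dKO and 319 in control in the authors' deposited table (authors' adjusted p = 0.0418). Cmpk2, a nucleotide kinase gene, was 3.25-fold higher, with 4157 in dKO and 1278 in control (authors' adjusted p = 0.00122), and Ifi35 2.69-fold higher, with 2595 in dKO and 964 in control in the authors' deposited table (authors' adjusted p = 4.7e-06). Rsad2 (viperin), with 460.2 in dKO and 213 in control, and Bst2 (tetherin), with 3600.3 in dKO and 1937 in control, missed the threshold in the authors' deposited table. Ly6e, a surface protein of immature thymocytes, averaged 25188 in dKO and 25812 in control and did not pass (authors' adjusted p = 0.965 in the authors' deposited table).

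All 5 genes of the ISG15 and ubiquitin system rose. Isg15, a ubiquitin-like protein attached to others after interferon, was 5.26-fold higher, with 2127 in dKO and 404 in control in the authors' deposited table (authors' adjusted p = 0.000696). Usp18, which removes ISG15 and holds back the type I receptor, was 7.75-fold higher, with 4892 in dKO and 631 in control in the authors' deposited table (authors' adjusted p = 0.000691). Herc6, the ISG15 ligase of the mouse, was 2.71-fold higher, with 1658 in dKO and 611 in control in the authors' deposited table (authors' adjusted p = 0.030). The ubiquitin ligase gene Dtx3l was 1.50-fold higher, with 4705 in dKO and 3129 in control in the authors' deposited table (authors' adjusted p = 0.0134). Trim25, another ubiquitin ligase gene, was 1.40-fold higher, with 4523 in dKO and 3231 in control in the authors' deposited table (authors' adjusted p = 0.0102). These were the smallest rises among the members that passed.

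Of the PARP, nuclear body and cell death genes 3 of 5 rose. Sp100, a nuclear body protein, was 6.40-fold higher, with 6839 in dKO and 1068 in control in the authors' deposited table (authors' adjusted p = 3.67e-07). Xaf1, an antagonist of the death inhibitor XIAP, was 4.49-fold higher, with 1152 in dKO and 256 in control in the authors' deposited table (authors' adjusted p = 0.00267). Parp9, the partner of Dtx3l, was 2.25-fold higher, with 4511 in dKO and 2008 in control in the authors' deposited table (authors' adjusted p = 0.000318). Parp9 and Dtx3l overlap on opposite strands in the reference annotation, so without strand their reads cannot be told apart there. Parp14 averaged 2118 in dKO and 1311 in control and, like Parp12, missed the threshold in the authors' deposited table.

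The interferon-gamma type GTPases act on the membranes around intracellular microbes. Igtp was 3.59-fold higher, with 5813 in dKO and 1618 in control in the authors' deposited table (authors' adjusted p = 3.16e-05). Irgm1, which regulates the other immunity-related GTPases, was 2.74-fold higher, with 6747 in dKO and 2462 in control in the authors' deposited table (authors' adjusted p = 0.00117). Gbp2 was 2.90-fold higher, with 2461 in dKO and 850.0 in control in the authors' deposited table (authors' adjusted p = 0.00261). Gbp7 averaged 5844 in dKO and 4048 in control and did not pass (authors' adjusted p = 0.24 in the authors' deposited table). Gbp3 averaged 369 in dKO and 403 in control and did not pass (authors' adjusted p = 0.836 in the authors' deposited table). Its dKO libraries of size factor 1.16, 1.08 and 1.04 had 215, 453 and 437 normalised counts, so those of 1.08 and 1.04 were above the control mean and that of 1.16 was below it. Igtp overlaps Irgm2 on the same strand in the reference annotation.

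Transcripts of the ligands were scarce. Of 21 interferon ligand genes listed, 2 have no row of that symbol, 8 were at 0 in both groups, 1 rose and 10 did not pass. The 6 tested genes for interferon alpha and beta, Ifnb1, Ifna1, Ifna2, Ifna4, Ifna5 and Ifna6, had 0, 49 and 59 reads in all in the dKO libraries of size factor 1.16, 1.08 and 1.04, and 0 reads in each of the 3 control libraries. The related gene Ifnab had 0 reads in all dKO libraries and 10 reads in control, all in the library of 0.823. Ifnz, a mouse type I interferon gene, ran the other way, with 5, 4 and 5 reads in the dKO libraries of 1.16, 1.08 and 1.04 and 26, 16 and 20 reads in the control libraries of 1.02, 0.952 and 0.823. All its dKO libraries were below all its control libraries, a separation whose share over all genes at such low means was not computed. With a mean 5.17-fold lower in dKO, Ifnz missed the threshold in the authors' deposited table (authors' adjusted p = 0.138). Type I ligand reads were thus found in both groups, those of Ifnz in both, those of the 6 genes in dKO only and those of Ifnab in control only. The dKO library of 1.16, with 0 reads of those 6 genes, was also lowest in every member resolved in dKO. The library of 1.08 was highest in those members but had fewer reads of the 6 genes than that of 1.04. Ifna4 had 0, 13 and 27 reads in the dKO libraries in that order and Ifnb1 0, 8 and 8, and none of the 6 genes passed in the authors' deposited table (the smallest authors' adjusted p was 0.0643, for Ifna4). Of 139 genes at 0 in control with a dKO mean of 4 to 15, 14.4% were at 0 in the dKO library of 1.16 alone. Ifnb1, Ifna1, Ifna2 and Ifna4 are among those 139 genes and were at 0 in that dKO library alone. Ifna5 and Ifna6, with dKO means of 0.620 and 1.86, lie below that range and were at 0 in the library of 1.04 as well. The Ifna genes are near-identical in sequence, so reads may be divided among them. The gene that rose was Ifng, which encodes interferon-gamma, a product of NK cells and other innate lymphocytes. It had normalised counts of 98.6, 53.9 and 94.4 in the dKO libraries of 1.16, 1.08 and 1.04, and 0, 4.20 and 0 in the control libraries of 1.02, 0.952 and 0.823. It was lowest in the dKO library of 1.08. How ligand reads and members relate over the 3 dKO libraries was not tested. Ifng was 58.8-fold higher in dKO in the authors' deposited table (authors' adjusted p = 3.51e-10), a fold that rests on 4 control reads, all in the library of 0.952.

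Receptor and signalling genes moved unequally. Both chains of the interferon-gamma receptor rose, Ifngr1 with 7578 in dKO and 3275 in control, 2.31-fold, and Ifngr2 with 1593 in dKO and 514 in control, 3.10-fold, in the authors' deposited table. Of the type I receptor, Ifnar1 rose 1.33-fold, with 2792 in dKO and 2107 in control, and Ifnar2 fell, with 1512 in dKO and 2328 in control, 1.54-fold lower, in the authors' deposited table (authors' adjusted p = 0.00435 for Ifnar1 and 7.54e-06 for Ifnar2). Il10rb, a chain of the interferon-lambda receptor, did not pass, and Il28ra, its partner, was at 0 in both groups. Jak2, Jak1 and Tyk2 rose 2.15-fold, 1.54-fold and 1.27-fold, and Stat3, with 8715 in dKO and 8757 in control, missed the threshold in the authors' deposited table. Of 7 other interferon regulatory factors only Irf8 passed, 2.94-fold higher with 536 in dKO and 183 in control in the authors' deposited table. Irf1, an early target of interferon-gamma, averaged 4208 in dKO and 3596 in control and did not pass (authors' adjusted p = 0.444 in the authors' deposited table), and Irf2 did not pass either.

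Of 14 tested genes for sensing upstream of interferon 7 rose and 0 fell by the authors' DESeq test, with no gene of lower mean under an unadjusted p of 0.05. Over all tested genes 15.1% rose and 13.8% fell by that test. Tlr3, a sensor of double-stranded RNA, had 64.0, 101 and 114 normalised counts in the dKO libraries of 1.16, 1.08 and 1.04, and was listed at 0 in control. It was thus at least 76.6-fold higher against a floor of 3 reads over the control group. Samhd1, which degrades nucleotides needed by viruses, was 5.34-fold higher with 6979 in dKO and 1306 in control, and E330016A19Rik, the older symbol of the DNA sensor gene Cgas, was 1.76-fold higher in the authors' deposited table. Ticam1, the adaptor of Tlr3, was 1.72-fold higher, while Tbk1 and Myd88 missed the threshold in the authors' deposited table. Of 9 genes listed as negative regulators, some of which may have other roles, 4 rose. Among them the phosphatase gene Ptpn6 fell, with 7363 in dKO and 8939 in control in the authors' deposited table. Ptpn1 and Pias1, the most abundant of the rest, did not pass. Socs1, an inhibitor of Jak kinases that interferon induces, was 4.71-fold higher with 5076 in dKO and 1078 in control, and Nlrc5, Trim24 and Ptpn2 were 3.88-fold, 1.77-fold and 1.54-fold higher in the authors' deposited table.

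Other interferon-responsive genes also mostly had higher means in dKO. Of 50 further type I responsive genes tested, 46 had a higher mean, 25 rose and 2 fell, with a median log2 change of 1.0. Of all 16241 tested genes 8030 had a higher mean. By the authors' DESeq test 15.1% of them rose and 13.8% fell. Smallest in adjusted p in the authors' deposited table came Slfn5 (7.06-fold), Ifitm1 (2.70-fold), Ifi27l1 (2.92-fold) and Slfn2 (6.67-fold). Those that fell were Mlkl, 1.92-fold, and Lgals9, 1.65-fold in the authors' deposited table. The most abundant of the others were Ifitm2, with 10316 in dKO and 9066 in control, and Apobec3, with 6594 in dKO and 7932 in control in the authors' deposited table. Of 27 further interferon-gamma type genes, 20 had a higher mean, and 14 rose and 0 fell by the authors' DESeq test. Of these 27 genes 0 had a lower mean with an unadjusted p under 0.05, and their median log2 change was 0.90. Cd274 (1.82-fold), Irgm2 (3.01-fold), the class I antigen presentation gene H2-D1 (2.89-fold) and Tapbp (2.33-fold) had the smallest adjusted p-values in the authors' deposited table. Psmb8, with 8931 in dKO and 9358 in control, and Tap2, with 5917 in dKO and 6667 in control, missed the threshold in the authors' deposited table.

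**Figure D4:**
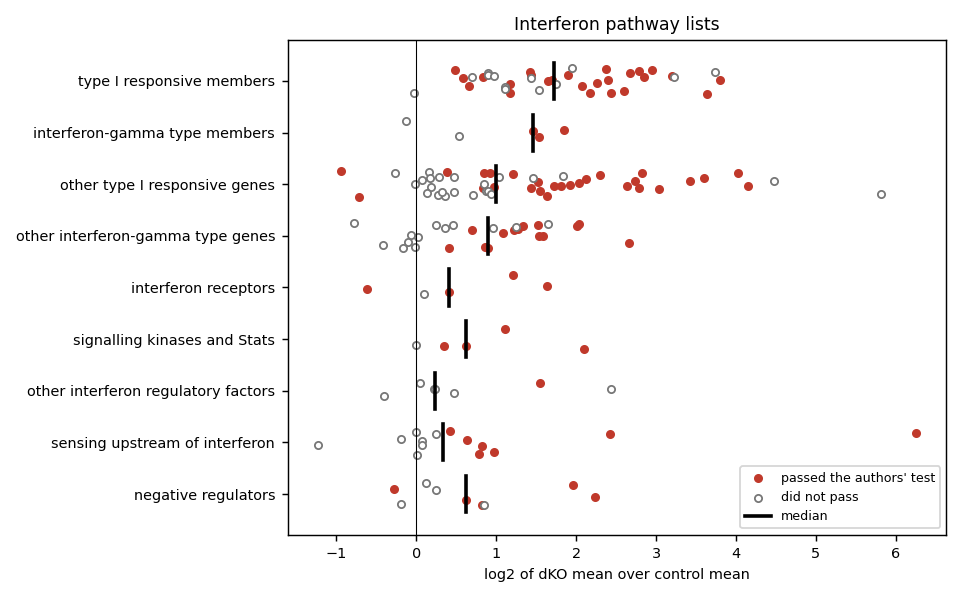
Log2 of dKO over control for each tested gene of the members and of the interferon pathway lists other than the ligands, with red points for genes that passed the authors' test, open points for the rest and a bar at the median of each list. Cxcl9, with 0 in dKO and 0.70 in control, is drawn at 0.46 because the dKO floor of 0.963 exceeds its control mean. The medians run from 0.24 for other interferon regulatory factors to 1.72 for the type I responsive members.

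Markers of other cell types moved in different directions. Plasmacytoid dendritic cells are known as producers of type I interferon. Of their 10 markers 3 (Siglech, Klk1 and Cd209d) were at 0 in both groups, 2 rose and 2 fell. Irf8, described above, and Pacsin1, with 1003 in dKO and 227 in control, rose in the authors' deposited table. Spib, with 9.08 in dKO and 232 in control, 25.5-fold lower, and Tcf4, with 1038 in dKO and 1755 in control, fell there. The markers summed to 4780.5 in dKO and 4390.2 in control. Ccr9, which did not pass, gave 2140 and 1960 of these. Macrophage and monocyte markers summed to 755 in dKO and 1308 in control, with 1 higher and 5 lower of 11 tested, and Cd14 at 0 in both groups. Markers of NK cells and other innate lymphoid cells summed to 51475 in dKO and 18390.0 in control, and 9 of 10 rose. Most of both sums came from Gata3 (22961 in dKO and 7051 in control), Id2 (12733 and 3583) and Nkg7 (8960 and 5375). Ncr1 (231 in dKO and 5.47 in control), Eomes (137 and 41.7) and Klrb1c (66.1 and 13.0) rose at far lower levels in the authors' deposited table. The sums are thus not a measure of cell numbers. Conventional dendritic cell markers summed to 1010 in dKO and 1629 in control, with 2 higher and 2 lower of 7 tested and Clec9a at 0 in both groups. B cell markers summed to 46.1 in dKO and 136 in control, with 2 lower of 5 tested and Ms4a1 and Pax5 at 0 in both groups. Erythroid markers summed to 122 in dKO and 1189 in control, with 1 lower of 4 tested, the globin gene Beta-s, which averaged 12.3 in dKO and 1032 in control in the authors' deposited table. Klf1 and Alas2 did not pass, and 4 of 8 erythroid markers (Hba-a1, Hba-a2, Hbb-b1 and Hbb-b2) were at 0 in both groups. Thymic stroma markers summed to 2500.3 in dKO and 2920.5 in control, with 1 lower of 6 tested and Pdgfra and Cdh5 at 0 in both groups. Most of both sums came from Pecam1 (2063 in dKO and 2639 in control), the gene called lower. Of the 6 tested, 4 had a higher mean in dKO. Among the sort markers Kit averaged 19067 in dKO and 14094 in control and Il2ra, which encodes the CD25 used as a negative marker in the sort, 8536 in dKO and 8417 in control in the authors' deposited table. The part of these cell types, of the YFP gate and of the differences between the dKO libraries in the rise of the members was not tested.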

How the data were processed

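Per the submitters' processing notes, bcl2fastq 1.8.4, TopHat2 2.0.14, DESeq version 2 and build mm9 were used, without roles. Per the labels' protocols, cDNA from sorted cells was amplified with a low-input SMARTer kit, so reads are not independent molecules, and floors cover counting error only. Per the file headers, the signal columns of the deposited table are the authors' group means of normalised counts, its fold column is the ratio of dKO to control, and the p-value columns, raw and adjusted, come from the authors' test. Means summed to 23.4 M in dKO and 22.1 M in control. No new test per gene was made. Log2 changes were computed from the means (Python 3.11.15, numpy 2.4.6, pandas 2.3.3). Where 1 group had 0 reads, 3 reads in all stood in for it, 0.963 in dKO and 1.21 in control as a group mean.

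Each mean is a sum of whole reads weighted by library. Weights were fitted from the lowest values, and all 5361 dKO and all 5259 control values up to 100 had a unique solution within their last printed digit. In 100 simulated dKO genes with means of 100 to 300, 93% were unique, and in 100 such control genes 29%. Of the unique solutions 100% were right. The simulated reads were made and solved with the same weights, so errors in the weights were not tested. With dKO means of 300 to 1000, where Parp12, Gbp3, Ifi204, Oas1b, Ifi27l2a, Phf11 and Iigp1 lie, 11% of 100 were unique. Random dKO values also had a solution in 64% of 100 at means of 300 to 1000 and in 9% of 100 at means of 100 to 300. A solution alone is thus no check of the reads at such means. Listed genes were sought up to a mean of 1000 and all genes up to 300.

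The members and lists were chosen with earlier results of these data known. Every member is reported. Of the pathway lists the 4 smallest adjusted p-values and the 2 most abundant genes that did not pass are named, with the receptors and Irf1; 1 gene that the rule names is not reported here. Genes named for their libraries (Ifi27l2a, Iigp1, Ifna4, Ifnb1, Ifnab, Ifnz and Ciita) were chosen after their values were seen. So were Beta-s, Pecam1 and the plasmacytoid dendritic cell and innate lymphoid cell markers given with values. The promoter table gave 33 members. Overlaps between genes come from GENCODE on GRCm38, with all 43 members found there.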

Additional observations from a re-analysis of the deposited data

How the results depend on the processing

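The count of members called higher, 28, was 21 at an adjusted p under 0.01, 24 with a fold of at least 2, 28 among genes with a mean of at least 10 and 29 among those with a mean of at least 100. It was 6 with a Bonferroni adjustment of the authors' p-values, which is stricter by construction. The median log2 change of 1.65 lay between 1.56 and 1.67 over the scaling, floor, pseudocount and filter alternatives, and no member that passed changed direction under either scaling. Of the interferon-responsive genes resolved in both groups, 10 were at least 2-fold higher in dKO, and 9 to 12 with any 1 library left out. That alternative was chosen after seeing the data. The count is partly set by which genes could be resolved, and the share over all resolved genes was not computed. It is given only for its dependence on single libraries and is not counted as a result. The deposited columns hold no values by library for most members, so the authors' calls could not be remade without the dKO library of size factor 1.08. No paired analysis was possible because the deposited columns are group means and carry no replicate numbers. Most members are too abundant to be resolved by library, and their spread is known only through the authors' p-values.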
